A study of Mus musculus with 8 samples.

Results

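The comparison described here set stabilised against deleted β-catenin across all genes of hypertrophic chondrocyte descendants, the cells that arise from the enlarged chondrocytes that end the growth plate. The GoF (gain of function) group held 2 libraries of mice with the genotype Col10a1Cre;Rosa26-Tdtomato;Ctnnb1-exon3 Δ/+, in which 1 allele of Ctnnb1 lacks exon 3. The LoF (loss of function) group held 4 libraries with the genotype Col10a1Cre;Rosa26-Tdtomato;Ctnnb1Δ/Δ, in which both alleles are deleted. A further 2 WT libraries (Col10a1Cre;Rosa26-Tdtomato) carried the same Cre and reporter with no Ctnnb1 mutation, and are used here to place the mutant levels. In all 3 groups Cre came from Col10a1, a gene of hypertrophic chondrocytes, so only cells with a history of Col10a1 expression were recombined and marked with tdTomato. Each library was a pool of 70 tdTomato-positive cells of the proximal tibia, picked by hand at postnatal day 5 and amplified by Smart-seq2, a full-length method that copies polyadenylated RNA. Genes were members where the FPKM (fragments per kilobase of transcript, scaled to depth, the unit of the deposited table) was at least 1 in at least 2 of the 6 GoF and LoF libraries, which held for 12309 of 48490 genes. The labels do not say whether the libraries of a group came from separate animals, and the spread between them, which sets the p-values, may be technical.

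β-catenin carries the canonical Wnt signal: without Wnt it is phosphorylated and degraded, and with Wnt it enters the nucleus and acts with TCF/LEF factors on target genes. Exon 3 holds the phosphorylation sites, so its loss gives a protein that escapes degradation. β-catenin also links cadherins to the actin cytoskeleton at cell contacts. In bone, Wnt signalling is known to favour the osteoblast, a cell that secretes large amounts of type I collagen. Collagen chains enter the endoplasmic reticulum (ER) through the translocon, are hydroxylated, folded and trimerised there, and leave in COPII-coated carriers.

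The libraries were alike in size: 12587 to 13944 genes lay above 0, and relative depth, read from the steps between low values, spanned 1.29-fold. Read totals are unknown, so a gene listed at 0 is described in those words and not as absent. Across genes, which are not independent replicates, Spearman's rho was 0.860 between the GoF libraries, 0.761 to 0.824 among the LoF libraries and 0.623 to 0.722 between the groups. The 10 most abundant genes took 22.1% and 23.7% of the summed FPKM in GoF and 12.1% to 16.2% in LoF. Loci that collect ribosomal RNA reads took 12% and 12.1% in GoF, 3.69% to 5.82% in LoF and 13.6% and 14.02% in WT. Y-linked transcripts were found in both GoF libraries and 2 LoF libraries (2 and 3), and Xist in the remaining LoF and both WT libraries. Col10a1, the gene that drove Cre, was at 189.6 and 177 FPKM in GoF, 9.61, 114, 59.4 and 69.4 in LoF and 6.24 and 20.5 in WT (limma log2 fold change 1.95, SE 0.80, adjusted p = 0.152). Osteoblast markers fixed for the cell check (Col1a1, Bglap, Ibsp, Sp7, Alpl and Runx2) were above 1 FPKM in every library. They summed to 14602 and 16099 FPKM in GoF and 743 to 1761 in LoF, mostly from Ibsp and Col1a1. Of 6 tested, 5 were called higher. Runx2 did not pass and overlapped, at 33.6 and 19.9 FPKM in GoF and 33.6, 23.9, 19.4 and 27.9 in LoF. A wider osteoblast list had 22 higher and 3 lower genes (Tnc, Spp1 and Mmp14) of 33 tested. The hypertrophic chondrocyte markers summed to 689.7 and 715.5 FPKM in GoF and 100.1 to 190.1 in LoF, with 4 of 6 called higher. A wider list of hypertrophic genes was mixed: of 13 tested, 6 were higher and 4 lower (Mmp9, Mmp13, Steap4 and Cd200). Of the osteoclast markers 2 of 3 tested were higher (Acp5 and Nfatc1), and Calcr, Dcstamp and Ocstamp were at 0 in all 6 libraries. Acp5 was not called without LoF library 4 (limma adjusted p = 0.053). Nfatc1 was not called without LoF library 1, 2 or 4 (limma adjusted p from 0.0726 to 0.0958). Both calls also rested on having both GoF libraries. Of 5 marrow stromal markers 4 were lower, and their sums of 39.7 and 61.1 FPKM in GoF and 590 to 1833 in LoF came mostly from Lepr in GoF and Cxcl12 in LoF. Lepr lay higher in GoF, at 38.1 and 56.9 FPKM against 15.7, 32.6, 2.15 and 11.02 in LoF, without passing (limma adjusted p = 0.124). Markers of adipocytes summed to 3.27 and 0.679 in GoF and 99.5 to 253 in LoF. The LoF sums came mostly from Fabp4, at 210.1, 97.9, 85 and 134.9 FPKM. Of 4 tested adipocyte markers 2 were lower (Fabp4 and Pparg), and Cidec was at 0 in all 6 libraries. The part of these cell types in the results below was not tested. In pools fewer cells of a type and less RNA per cell cannot be told apart. Ctnnb1 itself overlapped between the groups, at 72 and 86.7 FPKM in GoF and 81, 67.3, 70.4 and 81.1 in LoF (limma log2 fold change 0.08, SE 0.24, adjusted p = 0.867). Which exons were read cannot be seen in such a gene-level table. For Axin2, a direct Wnt target, every LoF library stood at 0 and the GoF libraries at 5.26 and 2.81 FPKM (limma adjusted p = 0.00439).

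Between stabilised and deleted β-catenin, 1567 of the 12309 genes (12.7%) passed the test, of which 790 (6.42%) were higher in GoF and 777 (6.31%) lower. The test was limma on log2(FPKM + 1) with all 3 groups in the fit, two-sided, and a gene was called at a Benjamini-Hochberg adjusted p under 0.05. The GoF and LoF libraries did not overlap in 4241 genes (34.5%), and in 1565 of the 1567 called genes. The smallest called difference was 0.80 and the median 2.08 on the log2 scale. A difference beyond 3 was seen in 181 genes that were higher and 156 that were lower. Among the higher genes 123 were listed at 0 in each of the 4 LoF libraries, and among the lower ones 87 were listed at 0 in both GoF libraries. Over all tested genes the log2 fold change had a median of -0.17, which was -0.04 under median ratio scaling and -0.31 when libraries were rescaled to a common total. These scalings gave 994 higher and 685 lower genes, and 680 higher and 1038 lower. The count rested on having both GoF libraries: 450 genes passed without GoF library 1 and 541 without GoF library 2. For most genes named below, leaving out a library is given where it ended the call. None of the called genes described below overlapped between the GoF and LoF libraries.

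Genes were sorted into 99 families by function or symbol, beside 7 lists of bone, cartilage, fat, marrow and Wnt genes. A listed gene could also belong to a family, as Sparc, Lox and Serpinh1 did to the collagen processing family. Family counts therefore include listed genes. Of the 3928 tested genes in any family, 18.5% passed. The share was 9.74% of the 8344 genes in no family and on no list, and 58.6% of the 133 genes on the lineage and Wnt lists. Families differed in how many members passed and in which direction, as the plot of called members by family shows. Among families of at least 10 tested members, the excess of higher over lower calls was largest in the collagen processing family and in the ER entry machinery. The excess of lower calls was largest in the IGF system and in the actin and myosin genes. No test of a family as a whole was run, and its counts are read against the shares over all genes.

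**Figure D1:**
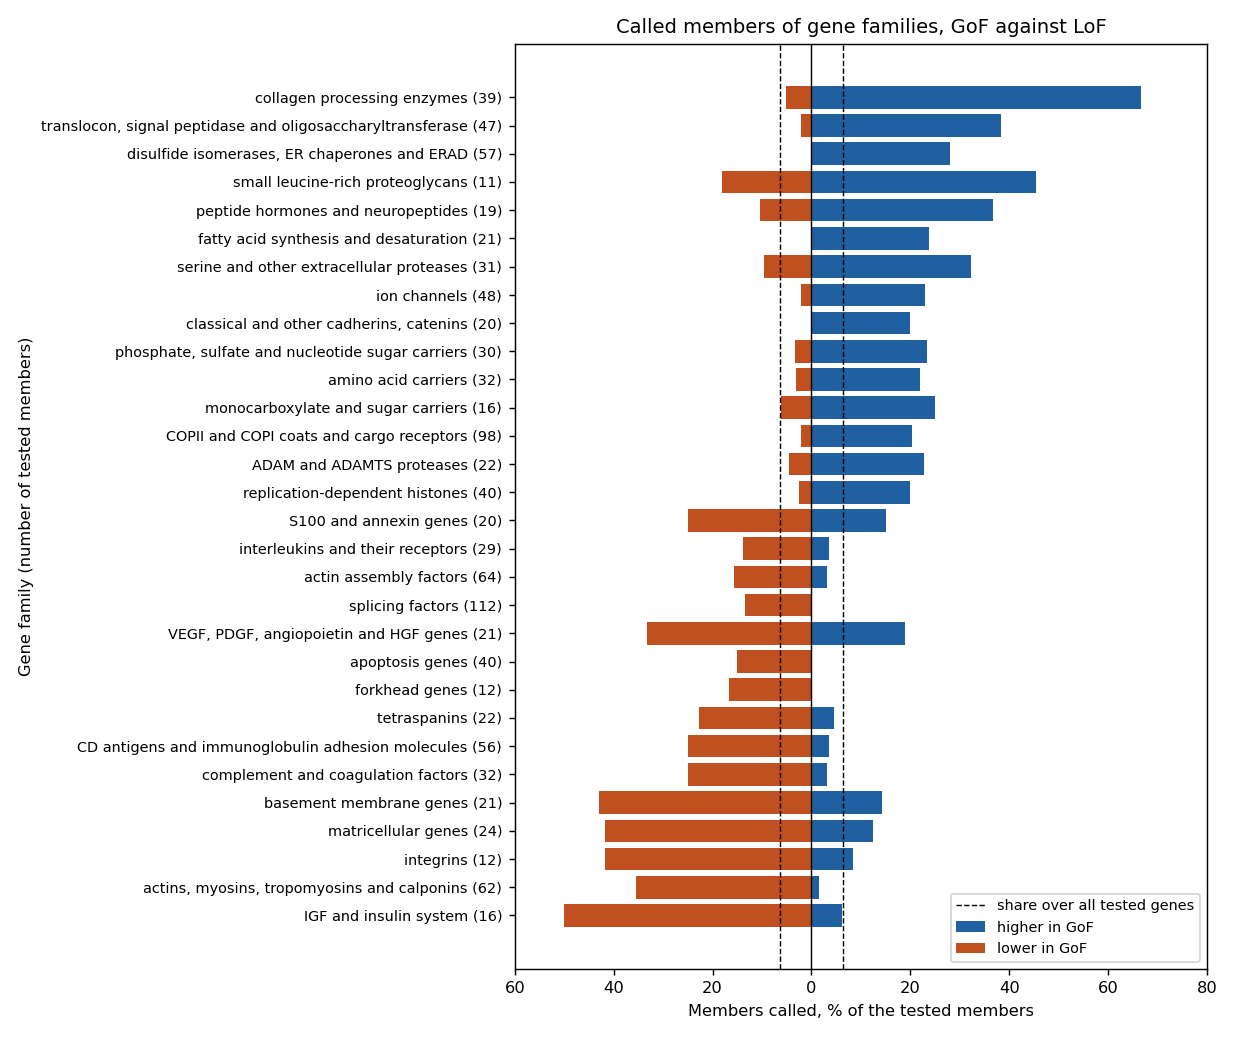
Share of tested members that were called higher (blue, to the right) or lower (orange, to the left) in GoF than in LoF, in percent of the tested members, for the 15 families with the largest excess of higher calls and the 15 with the largest excess of lower calls among families with at least 10 tested members. Dashed lines mark the shares over all tested genes, 6.42% higher and 6.31% lower. The family labelled collagen processing enzymes reaches 26 of 39 members higher, and the IGF system 8 of 16 lower.

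The collagen processing family had the highest share of calls among families of at least 10 tested members. It holds enzymes that modify and fold collagen and also other genes, such as Sparc, Creb3l1, Kdelr2 and Sec24d. Some members, such as Kdelr2 and Creb3l1, are counted again in the coat and ER folding families below. Of 39 tested members 26 were higher in GoF, 2 were lower and 11 did not pass, with a median log2 fold change of 1.51 against -0.17 over all genes. P4ha1 (ENSMUSG00000019916.14, chromosome 10, 59323296 to 59373304, mm10), which encodes a catalytic subunit of prolyl 4-hydroxylase, the enzyme that stabilises the collagen triple helix, was at 465 and 441 FPKM in GoF, 14.1, 12.6, 14.9 and 19.8 in LoF and 92.7 and 83.6 in WT (limma log2 fold change 4.81, SE 0.27, adjusted p = 1.83e-05). All 4 LoF libraries lay close together and far below either GoF library. P4ha2, the second catalytic subunit, was at 293 and 329.8 FPKM in GoF and 11.5, 9.17, 13.5 and 10.7 in LoF (limma log2 fold change 4.69, SE 0.27, adjusted p = 1.98e-05). P4hb, the partner subunit, which also works as a protein disulfide isomerase, was already abundant in LoF and differed less, at 759.8 and 772 in GoF and 200.2, 187, 287 and 301 in LoF (limma log2 fold change 1.68, SE 0.26, adjusted p = 0.00266). The third catalytic subunit went the other way: P4ha3 was listed at 0 in both GoF libraries and at 6.02, 5.72, 4.45 and 0.679 FPKM in LoF (limma adjusted p = 0.0414). The other lower member was Loxl1, a lysyl oxidase gene of elastic fibres, listed at 0 in both GoF libraries and at 13, 27.7, 36.4 and 12.4 in LoF (limma adjusted p = 0.000599). Pcolce2, which enhances removal of the procollagen C-propeptide, was at 37 and 77.3 in GoF and 1.68, 3.01, 7.04 and 7 in LoF (limma log2 fold change 3.41, SE 0.56, adjusted p = 0.00361). Without GoF library 1 the family had 11 higher members, and without GoF library 2 it had 12. P4hb and P4ha3 were not called without GoF library 1 (limma adjusted p from 0.0561 to 0.262). P4hb, P4ha3 and Pcolce2 were not called without GoF library 2 (limma adjusted p from 0.0532 to 0.22). P4ha3 was also not called without LoF library 1, LoF library 2, LoF library 3, WT library 1 or WT library 2 (limma adjusted p from 0.0662 to 0.0824).

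Genes of ER entry and exit were also higher more often than lower. In the translocon, signal peptidase and oligosaccharyltransferase family 18 of 47 tested members were higher and 1 was lower (Emc2), with a median of 0.86. Ssr4, a subunit of the translocon-associated complex, was at 787 and 874 FPKM in GoF, 217, 211, 212 and 214 in LoF and 314 and 405 in WT (limma log2 fold change 1.95, SE 0.21, adjusted p = 0.000308). The LoF libraries differed by only a few FPKM, and the GoF values lay far above them. Srpr and Srprb, the subunits of the receptor that docks ribosomes at the ER, had log2 fold changes of 1.70 and 1.70 (limma adjusted p = 0.00838 and 0.00623), and Tram1, a translocating chain protein, one of 1.74 (limma adjusted p = 0.00881). Among coat proteins and cargo receptors of the COPII and COPI carriers, 20 of 98 were higher and 2 lower, with a median of 0.61. Arf4, a small GTPase of the Golgi, was at 822 and 771 FPKM in GoF and 159, 215, 237 and 337 in LoF (limma log2 fold change 1.80, SE 0.29, adjusted p = 0.00306). Copz2, a COPI subunit, was at 414 and 470.5 in GoF and 78.7, 97.4, 146 and 156 in LoF (limma log2 fold change 1.93, SE 0.32, adjusted p = 0.00355). Sec23a, a COPII coat subunit needed for collagen export, was at 58 and 69.5 in GoF, 9.26, 16.4, 11.6 and 32.5 in LoF and 78.3 and 44.9 in WT (limma log2 fold change 1.96, SE 0.46, adjusted p = 0.0213). The lower members were Stx7, a syntaxin of endosomes, and Copg2, another COPI subunit, at 5.48 and 3.6 in GoF and 36.9, 54.9, 50.5 and 68.2 in LoF (limma log2 fold change -3.26, SE 0.34, adjusted p = 0.000294). Without GoF library 1 or GoF library 2 the translocon family had 4 and 1 higher members, and the coat family 4 and 2. Emc2, Srpr, Srprb, Tram1, Arf4, Copz2 and Sec23a were not called without GoF library 1 or without GoF library 2 (limma adjusted p from 0.0523 to 0.274). Emc2 was also not called without LoF library 2 (limma adjusted p = 0.0522).

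Genes that fold proteins or adjust ER capacity were higher or did not pass. Of 57 tested disulfide isomerases, ER chaperones and genes of ER-associated degradation (ERAD), 16 were higher and 0 lower, with a median of 0.79 and 2 and 2 higher members without GoF library 1 or 2. Creb3l1, a membrane-bound transcription factor of secretory cells that is needed for bone collagen, was at 172 and 159.5 FPKM in GoF, 25.1, 7.65, 4.57 and 18.1 in LoF and 80.5 and 98.8 in WT (limma log2 fold change 3.74, SE 0.55, adjusted p = 0.0019). Xbp1 (ENSMUSG00000020484.18, chromosome 11, 5520659 to 5525893), whose spliced mRNA encodes a transcription factor of the unfolded protein response, was at 316 and 349 in GoF, 22.1, 25.5, 28.2 and 37.7 in LoF and 77.6 and 62.1 in WT (limma log2 fold change 3.53, SE 0.28, adjusted p = 7.81e-05). At Creb3l1 the WT libraries sat near GoF, and at Xbp1 they sat nearer LoF. Fkbp11, a prolyl isomerase of secretory cells, was at 270.2 and 423 in GoF and 82, 21, 48.1 and 61 in LoF (limma log2 fold change 2.80, SE 0.46, adjusted p = 0.00352). Herpud1, a component of ERAD, was at 63.4 and 51.3 in GoF and 4.03, 13.3, 7.1 and 6.7 in LoF (limma log2 fold change 2.83, SE 0.43, adjusted p = 0.00253). Hspa5, which encodes BiP, the main ER chaperone and the usual readout of ER stress, was singled out after its values were seen: it was at 210.4 and 327 FPKM in GoF and 244, 256, 336 and 300.0 in LoF, and its groups overlapped (limma log2 fold change -0.10, SE 0.25, adjusted p = 0.839). Chac1, a glutathione-degrading enzyme, was at 37.2 and 8.56 in GoF and at most 0.364 in LoF (limma adjusted p = 0.0016), and Atf3 had a log2 fold change of 2.96 (limma adjusted p = 0.000951). Ddit3, at 47.4 and 65.2 in GoF and 30.1, 10.6, 5.47 and 3.1 in LoF, passed more narrowly (limma adjusted p = 0.0359). Creb3l1, Fkbp11, Herpud1 and Ddit3 were not called without GoF library 1 (limma adjusted p from 0.0589 to 0.241). Creb3l1, Fkbp11 and Ddit3 were not called without GoF library 2 (limma adjusted p from 0.0575 to 0.279). Ddit3 was also not called without LoF library 2, LoF library 3, LoF library 4, WT library 1 or WT library 2 (limma adjusted p from 0.0551 to 0.0652).

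**Figure D2:**
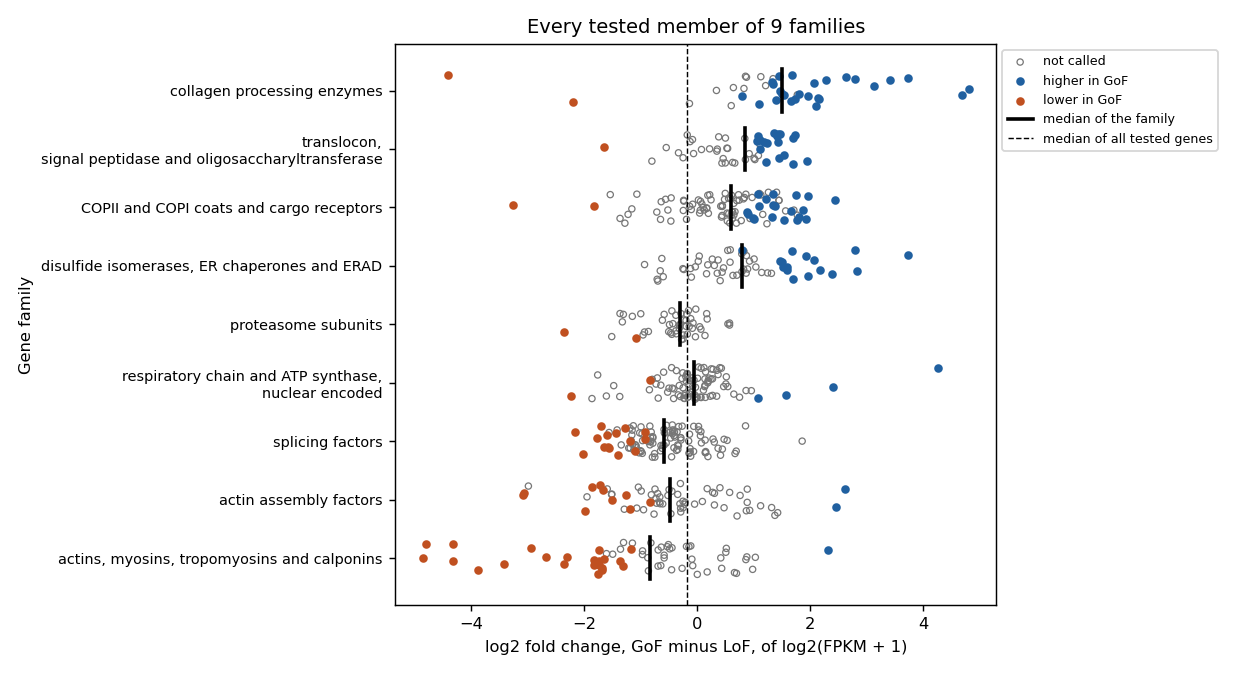
Log2 fold change (GoF minus LoF, of log2(FPKM + 1)) of every tested member of 9 families; filled points were called higher (blue) or lower (orange) and open points were not called. Black bars are family medians and the dashed line is the median of all tested genes, -0.17. Collagen processing, translocon, coat and ER folding families lie to its right with medians from 0.61 to 1.51, and the actin and myosin family lies to its left at -0.84.

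Counted once each, 70 genes of these 4 families were higher in GoF. The WT libraries lay near the GoF level for 25 of them, between the mutants for 37, near LoF for 7 and outside the pair for 1. On a scale from the LoF mean (0) to the GoF mean (1) of log2(FPKM + 1), near means within 0.25 of a mutant mean and outside means beyond 0.25 past either mean. The median position was 0.665. Over all 790 higher genes the median position was 0.328. Other systems of protein quality had few calls. Of 49 proteasome genes 0 were higher and 2 lower (Psmb8 and Psme2), and of 50 cytosolic heat shock and chaperonin genes 2 were higher and 1 lower. Among 35 aminoacyl-tRNA synthetases, Gars and Eprs were higher and the rest did not pass. Psmb8, Psme2 and Eprs were not called without GoF library 1 or without GoF library 2. Psmb8 was also not called without any 1 of the 4 LoF libraries (limma adjusted p from 0.0628 to 0.0841). Psme2 was also not called without LoF library 2, 3 or 4 (limma adjusted p from 0.0598 to 0.0699), or without WT library 1 or 2.

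Genes of the matrix itself differed in both directions. Of 30 tested collagen genes 7 were higher in GoF and 10 lower, with a median of -0.02 whose sign turned in 7 of 20 alternatives. Type I and type XI chains were higher: Col1a2 was at 5892 and 4243 FPKM in GoF, 1070.0, 413, 382 and 718 in LoF and 3856 and 4925 in WT (limma log2 fold change 3.08, SE 0.39, adjusted p = 0.000817), and Col11a2 at 108 and 86.8, 6.8, 7.99, 4.55 and 3.25 and 43.2 and 41.1 (limma log2 fold change 3.94, SE 0.37, adjusted p = 0.000172). Lower members were chains of connective tissue and basement membrane. Col3a1 (ENSMUSG00000026043.18, chromosome 1, 45311538 to 45349706), the type III collagen of soft connective tissue, was at 3.06 and 0.538 in GoF, 97.6, 120.5, 92.7 and 136 in LoF and 14.8 and 23.9 in WT (limma log2 fold change -5.48, SE 0.42, adjusted p = 6.32e-05). Col6a2, of the microfibril-forming type VI collagen, was at 2.6 and 1.84 in GoF and 29.5, 32.4, 37.6 and 43.3 in LoF (limma log2 fold change -3.51, SE 0.45, adjusted p = 0.000834). Among 11 small leucine-rich proteoglycans, which bind collagen fibrils, 5 were higher and 2 lower. Dcn (decorin) was at 886 and 796 in GoF, 57, 36.3, 23.3 and 43.7 in LoF and 152 and 422 in WT (limma log2 fold change 4.42, SE 0.43, adjusted p = 0.000207), and Lum (lumican) at 519 and 718, 46, 38, 17.9 and 40.4 and 131 and 256 (limma log2 fold change 4.14, SE 0.41, adjusted p = 0.000207). Ogn (osteoglycin) was opposite, at 7.37 and 0.667 in GoF and 65.3, 110.5, 58.6 and 88.8 in LoF (limma log2 fold change -4.41, SE 0.57, adjusted p = 0.000919). Fbn1, the fibrillin of mature microfibrils, was at 0.924 and 1.2 in GoF and 23.4, 38.5, 15.3 and 18.8 in LoF (limma log2 fold change -3.52, SE 0.42, adjusted p = 0.000613), while Fbn2, the fibrillin of early development, was higher (1.63 on the log2 scale, limma adjusted p = 0.0386). The collagens had 3 higher and 6 lower members without GoF library 1 and 5 and 5 without GoF library 2. The proteoglycan family had 2 higher and 1 lower members without GoF library 1 and 3 and 1 without GoF library 2. Col1a2 and Fbn2 were not called without GoF library 1 (limma adjusted p from 0.0549 to 0.154). Fbn2 was also not called without LoF library 1, LoF library 2, LoF library 3, LoF library 4, WT library 1 or WT library 2 (limma adjusted p from 0.0601 to 0.0716).

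Matricellular proteins, which signal from the matrix without building it, were lower more often than higher: 10 of 24 were lower and 3 higher, with a median of -0.57. Ctgf, a target of mechanical and TGF-β signals, was at 26.3 and 31 FPKM in GoF, 232, 341, 270 and 425 in LoF and 159.9 and 108 in WT (limma log2 fold change -3.39, SE 0.30, adjusted p = 0.000125). Tnc (tenascin C) was at 14.4 and 14.3 in GoF, 106, 160.4, 168 and 174 in LoF and 188 and 94.5 in WT (limma log2 fold change -3.29, SE 0.33, adjusted p = 0.000225). Cthrc1, a collagen triple helix repeat protein of bone-forming cells, was higher, at 713 and 668 in GoF and 96.5, 26.9, 16.8 and 122 in LoF (limma log2 fold change 3.81, SE 0.68, adjusted p = 0.00535). Secreted proteases and protease inhibitors were higher more often than lower, with 10 of 31 proteases and 8 of 30 inhibitors higher, and 3 and 4 lower. Serpinf1, the PEDF gene, whose loss causes a brittle bone disease, was at 1264 and 922 in GoF, 137, 115, 95.1 and 116 in LoF and 291 and 569 in WT (limma log2 fold change 3.22, SE 0.30, adjusted p = 0.00017). The proprotein convertases Pcsk6 and Pcsk5, which cleave secreted precursors, had log2 fold changes of 2.99 and 2.98 (limma adjusted p = 0.000717 and 0.00189). Klk4, a protease of enamel formation, was listed at 0 in all 4 LoF and both WT libraries and at 6.77 and 6.28 in GoF (limma adjusted p = 0.00078). Fap, a membrane protease of activated fibroblasts, was lower, at 16.3 and 30.3 in GoF and 229, 216, 154 and 144 in LoF (limma log2 fold change -2.97, SE 0.32, adjusted p = 0.000308). The matricellular family had 1 higher and 4 lower members when GoF library 1 or GoF library 2 was left out. The proteases had 7 higher and 1 lower members without GoF library 1 and 8 and 1 without GoF library 2. The inhibitors had 5 higher and 2 lower members without GoF library 1 and 5 and 1 without GoF library 2. Cthrc1 and Pcsk5 were not called without GoF library 1 (limma adjusted p from 0.0527 to 0.131). Cthrc1 was not called without GoF library 2 (limma adjusted p = 0.103).

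Inside the cell, genes of the actin cytoskeleton were lower in GoF more often than higher. Of 62 tested actins, myosins, tropomyosins and calponins 22 were lower and 1 was higher (Myo19, a myosin of mitochondria), with a median of -0.84. Among actin assembly factors 10 of 64 were lower and 2 higher, with a median of -0.48. Tmsb4x (ENSMUSG00000049775.16, chromosome X, 167207093 to 167209315), which encodes thymosin β4, the main actin-monomer binding peptide, was at 209 and 242 FPKM in GoF, 1707, 2192, 1836 and 1909.6 in LoF and 528 and 538 in WT (limma log2 fold change -3.08, SE 0.20, adjusted p = 4.62e-05). Every LoF library lay far above every GoF library, with WT in between. Myl6, the light chain of non-muscle myosin, was at 210.4 and 271 in GoF, 565, 611, 660.3 and 641 in LoF and 371 and 347 in WT (limma log2 fold change -1.37, SE 0.21, adjusted p = 0.00253). Other members lay further apart. Myl9, the regulatory myosin light chain, was at 0.778 and 3 in GoF and 38.3, 94.7, 85.1 and 110.2 in LoF (limma log2 fold change -4.86, SE 0.47, adjusted p = 0.000202), Tpm2, a tropomyosin, at 5.21 and 1.15 and 44.8, 69.6, 105 and 82.5 (limma log2 fold change -4.32, SE 0.47, adjusted p = 0.000313), and Fhl2, a LIM protein of stress fibres, at 5.06 and 0.444 and 52.5, 140.3, 57.8 and 102 (limma log2 fold change -4.80, SE 0.57, adjusted p = 0.0006). Marcks, which ties actin to the plasma membrane, was at 11.5 and 12.4 in GoF and 83.1, 122, 110.5 and 118 in LoF (limma log2 fold change -3.07, SE 0.27, adjusted p = 0.000124). Myo19 was not called without GoF library 2 (limma adjusted p = 0.102).

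Actb, the general β-actin gene, did not pass, and its LoF libraries split: 649, 761, 2733 and 2339 FPKM in LoF libraries 1 to 4 against 787 and 1006 in GoF (limma log2 fold change -0.58, SE 0.54, adjusted p = 0.536). Vim, the vimentin gene of mesenchymal intermediate filaments, was lower (limma log2 fold change -1.29, SE 0.34, adjusted p = 0.0333), and Stmn1, a destabiliser of microtubules, was at 6.79 and 16.6 in GoF and 64.8, 92.2, 118 and 128 in LoF (limma log2 fold change -3.07, SE 0.40, adjusted p = 0.000914). Microtubule genes as a family had 8 higher and 7 lower of 91. Some higher ones are known from neurons: Mapt (tau) was listed at 0 in all LoF and WT libraries and at 3.74 and 2.99 in GoF (limma adjusted p = 0.00386), and Stmn2 was at 3.95 and 8.99 in GoF and at most 0.304 in LoF (limma adjusted p = 0.00279). Of 5 tested pericyte and smooth muscle markers, Acta2 and Mcam were lower and Rgs5, Tagln and Cspg4 did not pass. Tagln was at 0.993 and 0.387 FPKM in GoF and 0.819, 2.27, 4.44 and 9.14 in LoF, and Cspg4 at 3.01 and 3.22 and 5.68, 3.23, 5.002 and 2.69. The 6 markers summed to 4.84 and 3.94 FPKM in GoF and 35.2 to 69.7 in LoF, and Acta2 was the largest part in LoF libraries 2, 3 and 4. Myh11, the defining smooth muscle myosin, was at 0 in all 6 libraries. The part of such cells in the actin difference was not tested. Without GoF library 1 or 2, 7 and 11 actin and myosin genes were lower. Actin assembly factors had 1 higher and 2 lower members without GoF library 1 and 2 and 4 without GoF library 2. Microtubule genes had 4 higher and 3 lower members without GoF library 1 and 3 and 2 without GoF library 2. Vim, Acta2 and Mcam were not called without GoF library 1 (limma adjusted p from 0.0669 to 0.32). Vim and Mcam were not called without GoF library 2 (limma adjusted p from 0.0915 to 0.152). Vim was also not called without LoF library 4, WT library 1 or WT library 2 (limma adjusted p from 0.055 to 0.0648).

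Many actin genes carry a CArG box, the site of serum response factor, near their start. RefSeq promoters (GRCm38.p6, 250 bases before to 50 after a start, searched on both strands) were matched to 8649 of 12306 tested symbols. The CArG box was found in 143 of them (1.65%), in 11 of 107 matched actin and myosin or actin assembly genes (10.3%) and in 5 of the 26 matched genes of these families that were lower in GoF (19.2%). Over all genes it stood in 14 of 538 that were higher (2.60%) and 18 of 547 that were lower (3.29%). The 5 lower actin genes were Cnn2, Fhl2, Myl6, Myl9 and Vcl. The promoters of Myl9 (chr2:156775214-156775513, plus strand, box starting at -161), Myl6 (chr10:128492960-128493259, minus strand, at -50) and 1 start of Fhl2 (chr1:43163912-43164211, minus strand, at -31) are shown because these 3 genes are among those described above, with the CArG box in capitals and positions counted from the start site.
Myl9: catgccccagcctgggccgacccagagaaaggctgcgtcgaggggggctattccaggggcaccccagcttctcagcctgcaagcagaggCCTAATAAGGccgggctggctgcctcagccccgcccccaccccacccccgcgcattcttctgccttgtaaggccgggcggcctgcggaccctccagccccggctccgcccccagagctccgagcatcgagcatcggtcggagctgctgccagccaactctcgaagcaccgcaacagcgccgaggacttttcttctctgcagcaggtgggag
Myl6: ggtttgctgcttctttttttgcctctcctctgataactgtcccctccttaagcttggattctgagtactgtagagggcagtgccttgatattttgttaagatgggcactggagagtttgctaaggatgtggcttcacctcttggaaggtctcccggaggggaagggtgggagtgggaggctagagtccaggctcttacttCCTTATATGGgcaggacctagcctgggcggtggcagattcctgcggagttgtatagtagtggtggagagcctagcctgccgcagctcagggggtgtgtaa
Fhl2: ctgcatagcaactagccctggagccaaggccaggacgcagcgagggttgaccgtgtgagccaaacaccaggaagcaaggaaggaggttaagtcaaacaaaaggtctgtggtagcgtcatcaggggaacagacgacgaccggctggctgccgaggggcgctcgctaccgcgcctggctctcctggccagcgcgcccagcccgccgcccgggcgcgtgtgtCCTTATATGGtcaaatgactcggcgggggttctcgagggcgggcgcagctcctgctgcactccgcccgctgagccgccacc
The TCF/LEF motif CTTTGAT stood in 268 promoters (3.10%), in 16 of 538 matched genes that were higher in GoF (2.97%) and in 13 of 547 that were lower (2.38%). It stood in 2 of the 26 lower actin genes (7.69%), in 2 of all 107 actin genes (1.87%) and in none of the 50 higher secretory and collagen processing genes. The ER stress response element (CCAAT and CCACG with 9 bases between them) stood in 14 promoters (0.162%), in 8 of 186 matched secretory and collagen processing genes (4.30%) and in 1 of the 50 of these that were higher in GoF (2.00%). The last was Syvn1, an ERAD ubiquitin ligase. A match is a description of letters and not a bound site.

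**Figure D3:**
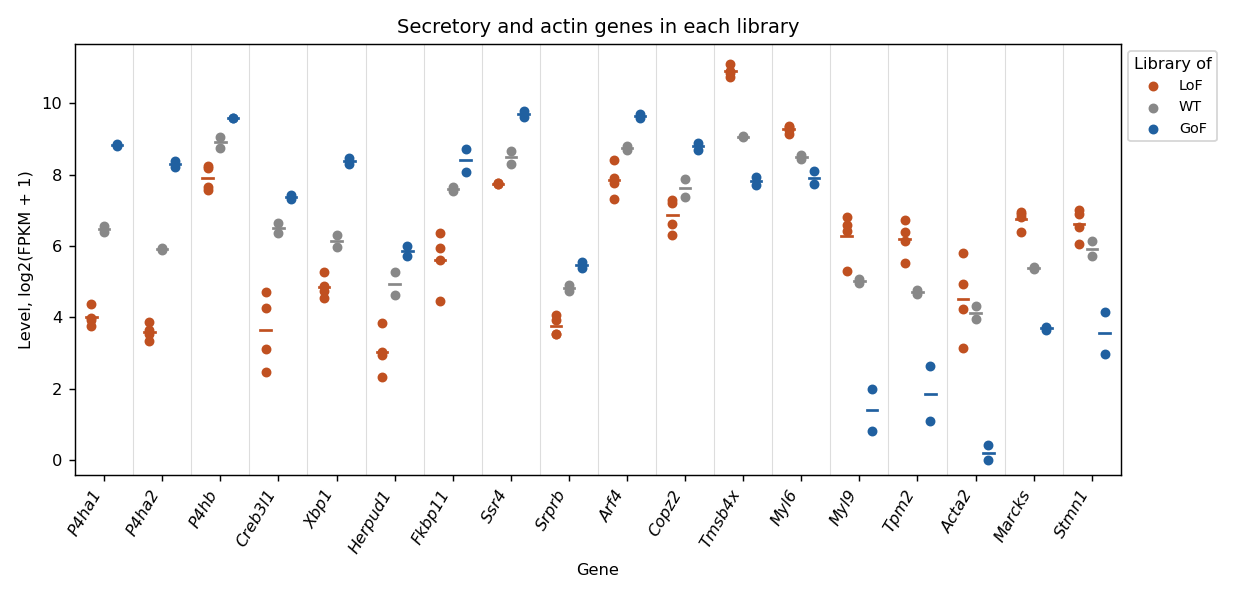
Level of 11 secretory genes (P4ha1 to Copz2) and 7 cytoskeletal genes (Tmsb4x to Stmn1) as log2(FPKM + 1), 1 point per library, with 4 LoF (orange), 2 WT (grey) and 2 GoF (blue) libraries and a bar at each group mean. GoF points lie above all LoF points for the secretory genes and below them for the cytoskeletal genes, with both WT points in between for most genes.

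Growth factor genes differed in both directions. The IGF system had the largest excess of lower genes: 8 of 16 tested members were lower and 1 was higher, with a median of -1.51 and 5 and 5 lower members without GoF library 1 or 2. Igfbp7 (ENSMUSG00000036256.13, chromosome 5, 77349240 to 77408041), a secreted binding protein, was at 9.47 and 9.13 FPKM in GoF, 427, 312, 332 and 277 in LoF and 66.3 and 49.2 in WT (limma log2 fold change -5.02, SE 0.27, adjusted p = 1.65e-05). Igfbp4, which restrains IGF1, was at 1.29 and 5.56 in GoF, 88.7, 173, 238 and 159 in LoF and 106 and 43.9 in WT (limma log2 fold change -5.33, SE 0.53, adjusted p = 0.000207). Igfbp2 was listed at 0 in both GoF libraries and at 30.7, 38.1, 22.7 and 14.2 in LoF (limma adjusted p = 0.000518). The ligand Igf1 was at 0.562 and 2.36 in GoF, 23.6, 78, 35.8 and 51.8 in LoF and 11.1 and 7.59 in WT (limma log2 fold change -4.26, SE 0.51, adjusted p = 0.000613). Igf2, the fetal ligand, was at 13.4 and 25.5 in GoF and 39.3, 51.8, 87.8 and 132 in LoF, above both WT libraries at 1.61 and 4.25 (limma log2 fold change -1.85, SE 0.52, adjusted p = 0.0423). The higher member was Htra1, a secreted protease that cleaves IGF binding proteins, at 946 and 795 in GoF, 146, 119, 137 and 112 in LoF and 65.2 and 36.8 in WT (limma log2 fold change 2.75, SE 0.28, adjusted p = 0.000224). Igf2 was not called without GoF library 1 or without GoF library 2 (limma adjusted p from 0.138 to 0.402). Igf2 was also not called without LoF library 2, LoF library 3, LoF library 4, WT library 1 or WT library 2 (limma adjusted p from 0.0523 to 0.0783).

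In the FGF family, which also holds the feedback genes Spry, Spred, Dusp, Etv4 and Etv5, 4 of 32 were higher and 4 lower. Fgfr1 and Fgfr2 were the only called receptors, and they went opposite ways. Fgfr1 was higher, at 98.6 and 66.5 FPKM in GoF and 16.6, 13.9, 21.3 and 23.4 in LoF (limma log2 fold change 2.08, SE 0.32, adjusted p = 0.00273), and Fgfr2 lower, at 0.598 and 1.89 and 28.4, 59.7, 40.6 and 67, with WT at 24.9 and 27.8 (limma log2 fold change -4.46, SE 0.42, adjusted p = 0.000172). Fgfr3, the receptor that restrains growth plate chondrocytes, did not pass (limma adjusted p = 0.973). Fgf7, a stromal ligand of the Fgfr2 splice form of epithelia, was listed at 0 in both GoF libraries and at 36.9, 63.8, 40.8 and 31 in LoF (limma adjusted p = 6.06e-05). Among VEGF, PDGF, angiopoietin and HGF genes 4 of 21 were higher and 7 lower. The PDGF ligand Pdgfa was at 85 and 99.5 in GoF and 11.6, 5.27, 3.92 and 6.87 in LoF (limma log2 fold change 3.64, SE 0.40, adjusted p = 0.000368), while the receptor Pdgfrb was at 0.123 and 0.0975 and 42.8, 33.9, 42.9 and 37.5 (limma log2 fold change -5.17, SE 0.46, adjusted p = 0.000136). Pdgfc and Pdgfd were also higher, with log2 fold changes of 2.81 and 2.94 (limma adjusted p = 0.00582 and 0.0257). Angpt4, an angiopoietin, was at 2.5 and 1.71 in GoF and 51.7, 54.3, 50.03 and 61.8 in LoF (limma log2 fold change -4.17, SE 0.32, adjusted p = 6.39e-05). Egfr, the EGF receptor, was at 3.74 and 0.0504 in GoF, 22.3, 25.2, 16.6 and 13 in LoF and 22.1 and 22.1 in WT (limma log2 fold change -3.14, SE 0.56, adjusted p = 0.0053). The FGF family had 0 higher and 2 lower members without GoF library 1 and 1 and 2 without GoF library 2. The VEGF and PDGF family had 2 higher and 5 lower members without GoF library 1 and 2 and 6 without GoF library 2. Fgfr1, Pdgfc and Pdgfd were not called without GoF library 1 (limma adjusted p from 0.0556 to 0.279). Pdgfc, Pdgfd and Egfr were not called without GoF library 2 (limma adjusted p from 0.0532 to 0.172).

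Most BMP ligands were higher: of 8 tested, Bmp2, Bmp3, Bmp4, Bmp7, Bmp8a and Bmp8b were higher, Bmp5 was lower and Bmp6 did not pass. The TGF-β and BMP family as a whole had 13 higher and 9 lower of 58 tested members, with a median of 0.07 whose sign turned in 3 of 20 alternatives. Bmp8a was at 87.4 and 60.9 FPKM in GoF, 2.29, 1.81, 2.5 and 2.99 in LoF and 4.56 and 6.96 in WT (limma log2 fold change 4.46, SE 0.39, adjusted p = 0.000124). Bmp7 was at 19.9 and 19.1 in GoF and 0.792, 1.75, 0 and 0.486 in LoF (limma log2 fold change 3.64, SE 0.51, adjusted p = 0.00148), and Bmp4 at 22.6 and 42.1 and 0, 4.39, 0 and 5.61 (limma log2 fold change 3.71, SE 0.86, adjusted p = 0.0196). Bmp2 was at 30.7 and 16.9 in GoF and 2.79, 2.26, 2.9 and 4.52 in LoF, with WT lowest at 1.4 and 0 (limma log2 fold change 2.56, SE 0.52, adjusted p = 0.0101). Bmp5 was the ligand that went the other way, at 0.359 and 0.142 in GoF, 6.97, 5.29, 12.2 and 10.5 in LoF and 7.32 and 7.08 in WT (limma log2 fold change -2.91, SE 0.46, adjusted p = 0.00286). Bambi, a decoy receptor and Wnt target, was at 131 and 109 in GoF and 3.27, 3.52, 1.38 and 3.12 in LoF (limma log2 fold change 5.02, SE 0.39, adjusted p = 6.32e-05). Fstl1, a secreted follistatin-like protein, was at 22 and 11.9 in GoF and 227, 316, 298 and 259 in LoF (limma log2 fold change -3.99, SE 0.44, adjusted p = 0.000363), and Tgfbr3, the betaglycan co-receptor, was listed at 0 in both GoF libraries and at 4.63, 11, 8.43 and 8.82 in LoF (limma adjusted p = 0.00265). Tgfb1 did not pass (limma adjusted p = 0.576). The TGF-β and BMP family had 7 higher and 4 lower members without GoF library 1 and 6 and 4 without GoF library 2. Bmp2 and Bmp4 were not called without GoF library 1 or without GoF library 2 (limma adjusted p from 0.0581 to 0.228).

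**Figure D4:**
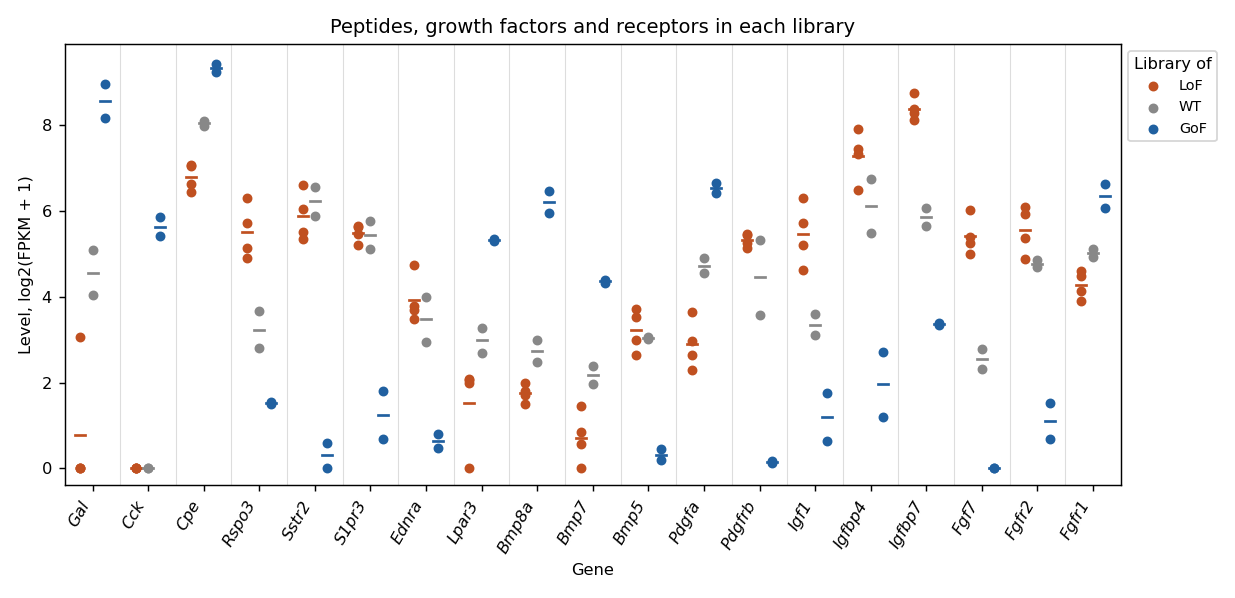
Level of 19 peptide, growth factor and receptor genes as log2(FPKM + 1), 1 point per library, with 4 LoF (orange), 2 WT (grey) and 2 GoF (blue) libraries and a bar at each group mean. Ligands such as Gal, Cck, Bmp8a, Bmp7 and Pdgfa lie highest in GoF, and Sstr2, S1pr3, Ednra, Pdgfrb, Igf1, Igfbp7, Fgf7 and Fgfr2 lie lowest there.

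Peptide hormone and neuropeptide genes were higher more often than lower. Of 19 tested members 7 were higher and 2 lower, with a median of 0.11 whose sign turned in 5 of 20 alternatives. Gal (ENSMUSG00000024907.6, chromosome 19, 3409919 to 3414472), which encodes the neuropeptide galanin, was at 494 and 288 FPKM in GoF, 7.33, 0, 0 and 0 in LoF and 33 and 15.3 in WT (limma log2 fold change 7.80, SE 0.82, adjusted p = 0.000294), so that 3 of the 4 LoF libraries were listed at 0. Cck, the cholecystokinin gene of gut and brain, was listed at 0 in all 4 LoF and both WT libraries and at 56.6 and 41.6 in GoF (limma adjusted p = 6.06e-05). Sct, the secretin gene, was low, at 3.21 and 6.9 in GoF and 0, 0, 2.17 and 0 in LoF (limma adjusted p = 0.0363). Cpe, the carboxypeptidase that trims peptide hormone precursors, was abundant in every library, at 604 and 686 in GoF, 98.6, 85.5, 134 and 132 in LoF and 274 and 252 in WT (limma log2 fold change 2.53, SE 0.25, adjusted p = 0.000224). Rspo3, a secreted enhancer of Wnt signalling, was lower, at 1.82 and 1.9 in GoF and 34, 78.2, 28.9 and 51.4 in LoF (limma log2 fold change -3.996, SE 0.46, adjusted p = 0.000435). The peptide family had 4 higher and 1 lower members without GoF library 1 and 5 and 1 without GoF library 2. Sct was not called without GoF library 1 or without GoF library 2 (limma adjusted p from 0.115 to 0.249). Sct was also not called without LoF library 1, LoF library 2, LoF library 4, WT library 1 or WT library 2 (limma adjusted p from 0.0622 to 0.0792).

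Of 69 G protein-coupled receptors 10 were higher and 11 lower, with a median of -0.69. Sstr2 (ENSMUSG00000047904.6, chromosome 11, 113619342 to 113626028), the somatostatin receptor, was at 0.517 and 0 FPKM in GoF, 97.1, 65.4, 44.6 and 39.7 in LoF and 92.8 and 58.4 in WT (limma log2 fold change -5.58, SE 0.42, adjusted p = 6.32e-05). S1pr3, a receptor for sphingosine 1-phosphate, was at 0.604 and 2.5 in GoF, 43.5, 36.2, 48.5 and 49.5 in LoF and 53.3 and 33.6 in WT (limma log2 fold change -4.25, SE 0.39, adjusted p = 0.000148). In both receptors the WT libraries lay at the LoF level. Ednra, the endothelin A receptor, was at 0.381 and 0.75 in GoF and 25.6, 12.7, 11.9 and 10.2 in LoF (limma log2 fold change -3.29, SE 0.49, adjusted p = 0.00221). Ece1, the enzyme that activates endothelin, was at 2.38 and 1.36 in GoF and 126, 29, 159.7 and 35.7 in LoF, with WT at 256 and 152 (limma log2 fold change -4.61, SE 0.65, adjusted p = 0.00163). The lysophosphatidic acid receptor Lpar3 was higher, at 39.9 and 38.2 in GoF and 2.95, 3.16, 0 and 3.25 in LoF (limma log2 fold change 3.79, SE 0.61, adjusted p = 0.00331). Pth1r, the receptor for parathyroid hormone and PTHrP, did not pass, at 25.1 and 32.2 in GoF and 35.6, 29.8, 45.4 and 30.5 in LoF (limma log2 fold change -0.29, SE 0.29, adjusted p = 0.58). Among G protein subunits and regulators, Gng11 was at 8.39 and 7.21 in GoF and 155, 145, 107 and 82.4 in LoF (limma log2 fold change -3.77, SE 0.31, adjusted p = 0.000104), while Gnas, the stimulatory α subunit, was higher (limma log2 fold change 1.14, SE 0.22, adjusted p = 0.00748). The receptor family had 2 higher and 2 lower members without GoF library 1 and 4 and 3 without GoF library 2. Ednra, Ece1, Lpar3 and Gnas were not called without GoF library 1 (limma adjusted p from 0.0529 to 0.0823). Ece1, Lpar3 and Gnas were not called without GoF library 2 (limma adjusted p from 0.0574 to 0.0711).

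Membrane transport genes were higher in GoF more often than lower. Of 188 solute carriers 26 were higher and 9 lower, and of 48 ion channel genes 11 were higher and 1 lower, with medians of 0.34 and 0.76. Slc13a5, the plasma membrane citrate carrier, was at 159 and 134 FPKM in GoF, 10.6, 2.91, 5.55 and 2.71 in LoF and 42.3 and 26.4 in WT (limma log2 fold change 4.68, SE 0.48, adjusted p = 0.000244). Slc16a4, of the monocarboxylate carrier family, was at 71.5 and 116 in GoF and 0, 0.502, 0 and 3.33 in LoF (limma log2 fold change 5.85, SE 0.67, adjusted p = 0.000446). Among amino acid carriers 7 of 32 were higher and 1 lower. Slc7a7 was at 62.4 and 86.8 in GoF, 2.41, 5.28, 1.32 and 3.99 in LoF and 4.2 and 7.42 in WT (limma log2 fold change 4.23, SE 0.48, adjusted p = 0.000429), and Slc36a2, a carrier of proline and glycine, the main residues of collagen, at 77.5 and 84.5, 11.3, 2.79, 1.09 and 4.4 and 39.4 and 54.1 (limma log2 fold change 4.10, SE 0.59, adjusted p = 0.00175). Pycr1, which makes proline, was at 104 and 128 in GoF and 13.2, 4.69, 3.32 and 18.6 in LoF (limma log2 fold change 3.68, SE 0.57, adjusted p = 0.00262). The family that holds Pycr1, serine, glycine, folate and asparagine synthesis, had 4 higher and 2 lower of 27 tested members. Slc39a13, a zinc carrier of the secretory pathway that connective tissue needs, had a log2 fold change of 2.28 (limma adjusted p = 0.0035), and Slc31a1, the copper importer, one of 1.43 (limma adjusted p = 0.0302). Slc40a1, the iron exporter ferroportin, was lower, at 0.825 and 1.79 in GoF and 12.8, 30.9, 14.4 and 20.9 in LoF (limma log2 fold change -3.12, SE 0.45, adjusted p = 0.0017), as was the ferritin heavy chain gene Fth1, at 413 and 404 and 908, 1098, 1247 and 1364 (limma log2 fold change -1.48, SE 0.22, adjusted p = 0.00229). Solute carriers had 9 higher and 3 lower members when GoF library 1 or GoF library 2 was left out. Amino acid carriers had 4 higher and 1 lower members without GoF library 1 and 3 and 0 without GoF library 2. Ion channels had 4 higher and 0 lower members without GoF library 1 and 5 and 0 without GoF library 2. Slc36a2, Pycr1, Slc39a13 and Slc31a1 were not called without GoF library 1 or without GoF library 2 (limma adjusted p from 0.0575 to 0.192). Slc31a1 was also not called without LoF library 2, WT library 1 or WT library 2 (limma adjusted p from 0.0526 to 0.0643).

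Carbonic anhydrases, which make bicarbonate and protons from CO2, had 5 tested members, of which 3 were higher and none lower. Car3 was at 619 and 658 FPKM in GoF, 40.5, 24, 17.6 and 40.8 in LoF and 208 and 388 in WT (limma log2 fold change 4.42, SE 0.39, adjusted p = 0.000124). Car12, the form with its active site outside the cell, was at 96.4 and 55 in GoF, 1.15, 0, 0 and 0.49 in LoF and 0 in both WT libraries (limma log2 fold change 5.79, SE 0.51, adjusted p = 0.000124). Car1 was listed at 0 in every LoF library and at 7.76 and 2.82 in GoF (limma adjusted p = 0.00537), while Car2, the form of osteoclasts and red cells, did not pass, at 14.4 and 20.4 and 20.3, 15.5, 15.8 and 20.5 (limma adjusted p = 0.935). Red cell transcripts were present in most pools: the 7 erythroid markers summed to 895 and 1838 FPKM in GoF and 76.0 to 2274 in LoF, with none of 5 tested called. Kcnk1, a potassium leak channel, was at 93.9 and 83.7 in GoF, 7.56, 3.75, 0 and 1.73 in LoF and 24.1 and 23.4 in WT (limma log2 fold change 4.79, SE 0.69, adjusted p = 0.00189). Kcnn1, a calcium-activated potassium channel, was listed at 0 in every LoF library and at 10.1 and 9.61 in GoF (limma adjusted p = 0.000547), and Ano1, a calcium-activated chloride channel, was at 22 and 30.2 and at most 4.07 in LoF (limma adjusted p = 0.00533). The sodium pump subunit Atp1b3 was at 331 and 313 in GoF and 61.3, 70.3, 60.05 and 74.9 in LoF (limma log2 fold change 2.26, SE 0.23, adjusted p = 0.000224). Of 17 subunits of the vacuolar proton pump 1 was higher (Atp6v0b) and 0 lower. Kcnk1 and Ano1 were not called without GoF library 1 (limma adjusted p from 0.0692 to 0.0824). Kcnk1, Ano1 and Atp6v0b were not called without GoF library 2 (limma adjusted p from 0.0579 to 0.103).

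Adhesion genes differed by class. Of 12 integrin genes 5 were lower and 1 was higher, with a median of -1.02. Itgav, a subunit of vitronectin and latent TGF-β receptors, was at 28.5 and 29.3 FPKM in GoF, 129, 93.9, 131 and 122 in LoF and 30.6 and 55.7 in WT (limma log2 fold change -1.99, SE 0.30, adjusted p = 0.00236), and the higher member was Itga11, a collagen receptor subunit (limma adjusted p = 0.0414). Basement membrane genes were lower in 9 of 21 and higher in 3. Col4a2 was at 1.13 and 0 in GoF and 17.2, 16.6, 15.4 and 11 in LoF (limma log2 fold change -3.44, SE 0.49, adjusted p = 0.00166), and Lamb1, a laminin chain, at 0.309 and 0.0949 and 13.6, 11.4, 12 and 7.43 (limma log2 fold change -3.31, SE 0.48, adjusted p = 0.00192). The endothelial markers summed to 62.6 FPKM in LoF library 3, to at most 9.19 in the other LoF libraries and to 1.77 and 0.541 in GoF. Their part in these values was not tested. Among cell surface CD antigens and immunoglobulin-like adhesion molecules 14 of 56 were lower and 2 higher. Cadherins of all kinds and catenins had 4 higher and 0 lower members of 20. The 3 higher ones named here were at low levels: Cdh8 was listed at 0 in all LoF and WT libraries and at 5.51 and 5.65 in GoF (limma adjusted p = 0.00109), and Cdh4 and Cdh23 were listed at 0 in LoF and lay between 2.04 and 3.96 in GoF (limma adjusted p = 0.00683 and 0.00785). None of 14 protocadherin genes passed in limma. Integrins had 1 higher and 3 lower members without GoF library 1 and 0 and 2 without GoF library 2. Basement membrane genes had 1 higher and 3 lower members without GoF library 1 and 3 and 2 without GoF library 2. The CD and immunoglobulin family had 0 higher and 5 lower members when GoF library 1 or GoF library 2 was left out. Itga11 was not called without GoF library 1 or without GoF library 2 (limma adjusted p from 0.221 to 0.24). Itga11 was also not called without LoF library 1, LoF library 2, LoF library 3, WT library 1 or WT library 2 (limma adjusted p from 0.0563 to 0.0788).

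Some families of innate defence were lower more often than higher, and others were mixed. Of 32 complement and coagulation genes 8 were lower and 1 higher, of 35 interferon-induced genes 5 and 2, and of 40 apoptosis genes 6 and 0. Of 29 pattern recognition and lectin genes 5 were lower and 4 higher, and of 20 genes of MHC class I and antigen presentation 1 and 2. The inflammatory caspase Casp1 was listed at 0 in both GoF libraries and at 39.5, 15, 23.3 and 26.7 FPKM in LoF, with WT at 3.78 and 0.933 (limma adjusted p = 0.000368), and Casp4 was likewise at 0 in GoF and at 16.9, 31.9, 16 and 4.13 in LoF (limma adjusted p = 0.012). Cd55, which protects cells from complement, was at 8.9 and 10.3 in GoF, 196, 120.5, 105 and 88.8 in LoF and 100.4 and 89.8 in WT (limma log2 fold change -3.54, SE 0.33, adjusted p = 0.000167). Ifitm3, an antiviral membrane protein, was at 43.7 and 31.3 in GoF, 369, 433, 378 and 248 in LoF and 240.4 and 239 in WT (limma log2 fold change -3.21, SE 0.28, adjusted p = 0.000124), opposite to its bone-restricted relative Ifitm5, at 545 and 878, 40.4, 29.8, 25.9 and 60.7 and 374 and 274 (limma log2 fold change 4.18, SE 0.36, adjusted p = 0.000124). Pros1, the anticoagulant protein S, was at 6.25 and 6.64 in GoF and 32.1, 45.1, 44.1 and 54.4 in LoF (limma log2 fold change -2.57, SE 0.31, adjusted p = 0.000671). Gzme, a granzyme, was listed at 0 in both GoF libraries and at 28.9, 17.8, 51.3 and 11.6 in LoF (limma adjusted p = 0.000885). Leukocyte markers were present in both groups and none of 3 tested was called, with sums of 15.3 and 17.9 FPKM in GoF and 13.2 to 46.3 in LoF. Neutrophil markers summed to 0 and 1.40 in GoF and 9.45 to 92.4 in LoF, also with none of 3 tested called. The part of blood cells in these values was not tested. Complement and coagulation genes had 0 higher and 2 lower members when GoF library 1 or GoF library 2 was left out. Interferon-induced genes had 1 higher and 2 lower members when GoF library 1 or GoF library 2 was left out. Apoptosis genes had 0 higher and 3 lower members without GoF library 1 and 0 and 1 without GoF library 2. Antigen presentation genes had 0 higher and 0 lower members when GoF library 1 or GoF library 2 was left out. Casp4 was not called without GoF library 1 or without GoF library 2 (limma adjusted p from 0.141 to 0.171).

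Transcription factors differed gene by gene. Sp6, a relative of the osteoblast factor Sp7, stood at 0 in every LoF library and at 40.9 and 31.8 FPKM in GoF, with WT at 0.351 and 0.175 (limma adjusted p = 7.81e-05). Homeobox genes outside the Hox clusters were split, with 5 higher and 5 lower of 41. Msx2 was listed at 0 in all LoF and WT libraries and at 12.7 and 17.5 in GoF (limma adjusted p = 0.00021), while its relative Msx1 was lower, at 1.56 and 0.609 in GoF and 20.1, 14.6, 16.2 and 16.9 in LoF (limma log2 fold change -3.14, SE 0.38, adjusted p = 0.000667). Of 15 Hox cluster genes only Hoxb9 passed, at 8.39 and 5.06 in GoF and 0, 0, 0 and 0 in LoF (limma adjusted p = 0.00121). Among 23 nuclear receptors, Nr4a2 was higher, at 19.1 and 36 in GoF and 0, 0.605, 1.38 and 0.258 in LoF (limma log2 fold change 4.20, SE 0.52, adjusted p = 0.000685), and Pparg, Vdr and Thra were lower. Vdr, the vitamin D receptor, was at 0.932 and 0.981 in GoF, 12.6, 11.3, 12.1 and 16.9 in LoF and 22 and 15.3 in WT (limma log2 fold change -2.85, SE 0.37, adjusted p = 0.00098). Maf, a leucine zipper factor, was lower, at 0.425 and 0.741 in GoF and 14.9, 17.4, 10.2 and 16.4 in LoF (limma log2 fold change -3.29, SE 0.41, adjusted p = 0.000689). Tead1, a DNA-binding partner of YAP, was at 0.81 and 1.93 in GoF and 19.8, 10.04, 30.7 and 17.6 in LoF (limma log2 fold change -3.06, SE 0.48, adjusted p = 0.00286), and Snai2, a repressor of epithelial genes, at 2.57 and 1.44 and 16.8, 34.7, 16.4 and 29.3 (limma log2 fold change -3.03, SE 0.45, adjusted p = 0.00209). Of 250 zinc finger genes with the symbol stem Zfp 1 was higher and 13 were lower, a called share of 5.6% against 12.7% over all genes. The homeobox family had 1 higher and 2 lower members without GoF library 1 and 1 and 1 without GoF library 2. Nuclear receptors had 1 higher and 1 lower members without GoF library 1 and 1 and 2 without GoF library 2. The Zfp genes had 0 higher and 1 lower members when GoF library 1 or GoF library 2 was left out. Pparg, Thra and Tead1 were not called without GoF library 1 (limma adjusted p from 0.056 to 0.188). Thra and Snai2 were not called without GoF library 2 (limma adjusted p from 0.051 to 0.164). Thra was also not called without LoF library 2 or LoF library 4 (limma adjusted p from 0.06 to 0.0698).

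Lipid genes followed different lines. Of 21 genes of fatty acid synthesis and desaturation 5 were higher and 0 lower, with a median of 0.12 whose sign turned in 4 of 20 alternatives. Me1, the malic enzyme that supplies NADPH, was at 48.7 and 42.6 FPKM in GoF and 0.535, 5.08, 0.197 and 3.46 in LoF (limma log2 fold change 4.13, SE 0.70, adjusted p = 0.00418). Of 25 cholesterol synthesis genes 4 were higher and 0 lower, and of 62 genes of fatty acid oxidation and peroxisomes 3 were lower and 0 higher. The lower share of the oxidation genes, 4.84%, was below the 6.31% over all tested genes. Acaa2, a thiolase of mitochondrial β-oxidation, was at 4.74 and 9.01 in GoF and 26.4, 72.9, 56.7 and 69.8 in LoF (limma log2 fold change -2.82, SE 0.44, adjusted p = 0.00286). Of 42 sphingolipid and ceramide enzymes 6 were higher and 1 was lower (B4galnt1). Sgms2, a sphingomyelin synthase of mineralising cells, was at 313 and 394 in GoF, 18, 12.1, 7.45 and 16.3 in LoF and 146 and 108 in WT (limma log2 fold change 4.67, SE 0.36, adjusted p = 6.32e-05), and the lysosomal sphingomyelinase Smpd1 at 57.1 and 76.3, 4.53, 5.55, 4.69 and 10.2 and 6.73 and 12.9 (limma log2 fold change 3.27, SE 0.42, adjusted p = 0.000919). Ptgs2, the inducible prostaglandin synthase, was at 33.2 and 22.5 in GoF and at most 0.515 in LoF (limma adjusted p = 0.000299). Lipi, a phospholipase of the lipase family, was listed at 0 in every LoF library and at 45.9 and 88.8 in GoF (limma adjusted p = 0.000124). Fatty acid synthesis genes had 0 higher and 0 lower members without GoF library 1 and 1 and 0 without GoF library 2. Cholesterol synthesis genes had 0 higher and 0 lower members when GoF library 1 or GoF library 2 was left out. Fatty acid oxidation genes had 0 higher and 1 lower members when GoF library 1 or GoF library 2 was left out. Sphingolipid enzymes had 2 higher and 0 lower members without GoF library 1 and 3 and 0 without GoF library 2. Me1, Acaa2 and B4galnt1 were not called without GoF library 1 (limma adjusted p from 0.0608 to 0.103). Me1 and B4galnt1 were not called without GoF library 2 (limma adjusted p from 0.0814 to 0.175).

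Energy metabolism had few calls outside glycolysis. Of 91 nuclear genes of the respiratory chain 4 were higher and 2 lower, and of 30 citric acid cycle genes 0 were higher and 1 was lower. The exception in size was Cox4i2, an isoform of a cytochrome oxidase subunit, at 151 and 226 FPKM in GoF, 4.72, 20.1, 6.06 and 9.37 in LoF and 1.3 and 7.43 in WT (limma log2 fold change 4.26, SE 0.62, adjusted p = 0.00184). Among 29 glycolysis and gluconeogenesis genes 5 were higher and 1 lower, with a median of 0.46. Pkm was at 209.5 and 251 in GoF and 51.3, 36, 66.1 and 65 in LoF (limma log2 fold change 2.09, SE 0.30, adjusted p = 0.00172), and Pck2, the mitochondrial PEP carboxykinase, at 39.5 and 32.2 and 2.24, 5.69, 7.97 and 4.04 (limma log2 fold change 2.71, SE 0.45, adjusted p = 0.00355). Glutathione and redox genes were lower in 9 of 72 and higher in 3. Mgst1 and Mgst3, microsomal glutathione transferases, went opposite ways, with Mgst1 at 1.49 and 1.12 in GoF and 54.9, 126, 76.4 and 63.2 in LoF (limma log2 fold change -5.07, SE 0.96, adjusted p = 0.00705) and Mgst3 at 47.7 and 95.9 and 9.13, 6.67, 5.55 and 7.88 (limma log2 fold change 3.07, SE 0.38, adjusted p = 0.000717). Cdo1, which oxidises cysteine, was at 178 and 183 in GoF and 15, 5.54, 0 and 9.11 in LoF (limma log2 fold change 4.99, SE 0.87, adjusted p = 0.00473). Aldehyde and aldo-keto dehydrogenases and cytochromes P450 had 4 higher and 8 lower of 48. Respiratory chain genes had 0 higher and 0 lower members without GoF library 1 and 1 and 2 without GoF library 2. Glycolysis genes had 1 higher and 0 lower members when GoF library 1 or GoF library 2 was left out. Glutathione and redox genes had 1 higher and 2 lower members without GoF library 1 and 1 and 1 without GoF library 2. The dehydrogenase and P450 family had 2 higher and 1 lower members when GoF library 1 or GoF library 2 was left out. Cox4i2, Pck2, Mgst1 and Cdo1 were not called without GoF library 1 or without GoF library 2 (limma adjusted p from 0.0522 to 0.138).

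In the nucleus, all called splicing factors were lower. Of 112 tested members 15 were lower and 0 higher, with a median of -0.58 against -0.17 over all genes, and the median was -0.44 under median ratio scaling, where that of all genes was -0.04 and 1 member was higher. Hnrnpa2b1, an abundant RNA-binding protein, was at 258 and 233 FPKM in GoF and 366, 502, 486 and 529.9 in LoF (limma log2 fold change -0.93, SE 0.23, adjusted p = 0.025). Hnrnpa0 was at 9.07 and 6.92 in GoF and 32.2, 35.2, 40.1 and 33.8 in LoF (limma log2 fold change -2.02, SE 0.31, adjusted p = 0.00253). Without GoF library 1 or 2 there were 2 and 4 lower members. Chromatin enzymes had 1 higher and 7 lower of 143, and mitochondrial ribosomal proteins 1 and 2 of 79. Their lower shares, 4.9% and 2.53%, were below the 6.31% over all tested genes. Histone genes of the replication-dependent clusters were higher in 8 of 40 and lower in 1. Hist1h2bc was at 522 and 421 in GoF, 44, 52.3, 46 and 47.5 in LoF and 70.2 and 60.7 in WT (limma log2 fold change 3.28, SE 0.24, adjusted p = 5.48e-05), and Hist2h2aa1 at 72.3 and 64.4, 8.53, 5.54, 5.92 and 8.33 and 3.82 and 8.86 (limma log2 fold change 3.12, SE 0.40, adjusted p = 0.000817). Histone genes are near-identical copies, so reads may be split between them. Cdkn1a, the cell cycle inhibitor p21, was at 642 and 667 in GoF, 145, 59.1, 76.7 and 163 in LoF and 75.7 and 119.5 in WT (limma log2 fold change 2.67, SE 0.41, adjusted p = 0.0025), while Cdkn2c, the inhibitor p18, was lower (limma adjusted p = 0.0206). Of the cyclin and inhibitor family 4 were higher and 5 lower of 65, shares of 6.15% and 7.69% that lay near the 6.42% and 6.31% over all tested genes. Chromatin enzymes had 0 higher and 0 lower members without GoF library 1 and 0 and 2 without GoF library 2. Histone genes had 5 higher and 0 lower members without GoF library 1 and 6 and 1 without GoF library 2. Cyclins and inhibitors had 1 higher and 0 lower members without GoF library 1 and 1 and 2 without GoF library 2. Hnrnpa2b1, Cdkn1a and Cdkn2c were not called without GoF library 1 or without GoF library 2 (limma adjusted p from 0.05 to 0.194). Hnrnpa2b1 was also not called without LoF library 2 (limma adjusted p = 0.0575).

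Among abundant genes outside these systems, Itm2b (ENSMUSG00000022108.7, chromosome 14, 73362231 to 73385271), a membrane protein gene, had one of the clearest separations, at 2932 and 3509 FPKM in GoF, 331, 361, 412 and 444 in LoF and 392 and 379.8 in WT (limma log2 fold change 3.06, SE 0.21, adjusted p = 4.69e-05). Both WT libraries lay inside the LoF range. Rnaset2b, a lysosomal RNase with a near-identical copy, Rnaset2a, that may share its reads, was at 705 and 914 in GoF, 116, 72.5, 68.8 and 73.4 in LoF and 120.5 and 126 in WT (limma log2 fold change 3.30, SE 0.27, adjusted p = 0.000104). Lrrc15, a leucine-rich repeat protein of matrix-forming fibroblasts and osteoblasts, and Sgca, a sarcoglycan of the muscle dystrophin complex, stood at 0 in every LoF library and at 26 and 35.6 (Lrrc15) and 23.6 and 26.9 FPKM (Sgca) in GoF (limma adjusted p = 0.000117 and 0.000148). Gchfr, which regulates tetrahydrobiopterin synthesis, was at 42.3 and 45.6 in GoF and at most 1.42 in LoF (limma log2 fold change 5.17, SE 0.51, adjusted p = 0.00021). Egfem1 was listed at 0 in LoF and WT and at 52.7 and 60.4 in GoF (limma adjusted p = 4.7e-05). Ptn (pleiotrophin), a heparin-binding growth factor, was at 125 and 232 in GoF and 3.21, 7.41, 0.435 and 4.88 in LoF (limma log2 fold change 5.36, SE 0.69, adjusted p = 0.000881). In the other direction, Gdpd2, a glycerophosphodiesterase of osteoblast-lineage cells, was at 1.2 and 0 in GoF and 45.7, 105, 53.2 and 32.9 in LoF (limma log2 fold change -5.21, SE 0.49, adjusted p = 0.000172). The calcium-binding genes S100a11 and S100a6 were lower, with S100a11 at 183 and 286 in GoF and 718, 982, 698 and 985 in LoF (limma log2 fold change -1.86, SE 0.27, adjusted p = 0.00181). S100a11 and S100a6 were not called without GoF library 1 (limma adjusted p from 0.0534 to 0.199). Ptn and S100a6 were not called without GoF library 2 (limma adjusted p from 0.0512 to 0.0719).

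Placed between the mutants, the WT libraries, which enter the estimate of the spread but not the difference, were most often in between, as the histogram of positions shows. Of the 790 higher genes WT was near LoF for 298 (37.7%), between for 337 (42.7%), near GoF for 122 (15.4%) and outside the pair for 33 (4.18%). In 76 of these 790 genes all LoF and both WT libraries were listed at 0, which places WT at exactly 0 on the scale. Of the 777 lower genes it was near LoF for 231 (29.7%), between for 415 (53.4%), near GoF for 113 (14.5%) and outside for 18 (2.32%). Genes higher in GoF with WT at the LoF level included Itm2b, Hist1h2bc, Car12 and Cck, and those with WT at the GoF level included Creb3l1, Cthrc1 and Slc36a2. Genes lower in GoF with WT at the LoF level included Sstr2, S1pr3, Vdr and Cd55, and those with WT at the GoF level included Igfbp2, Col6a2 and Fth1. In Htra1, Bmp2, Cox4i2 and Igf2 both mutant means lay on the same side of the WT mean.

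**Figure D5:**
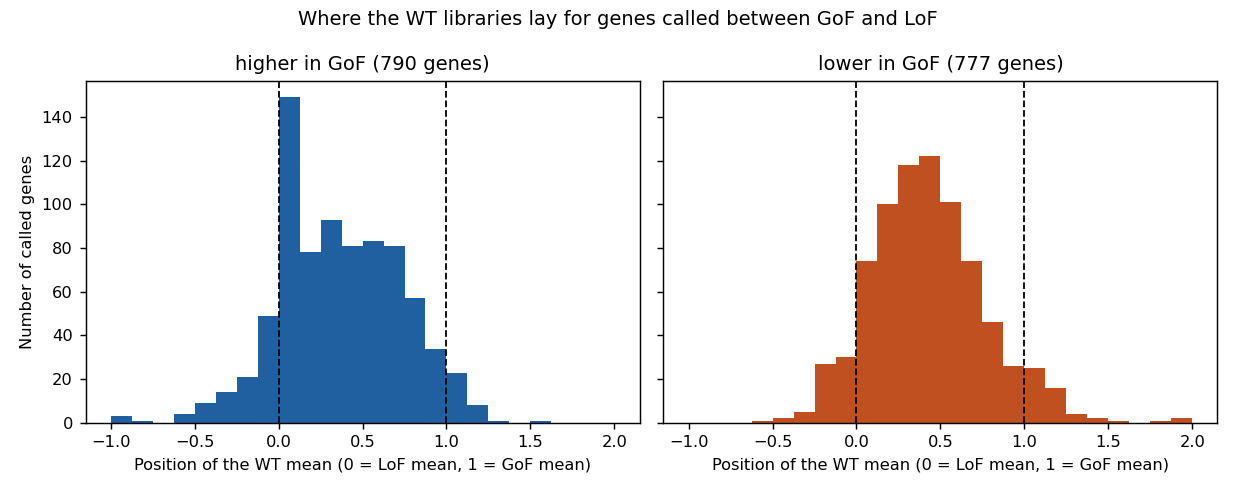
Number of called genes (vertical axis) by the position of the WT mean between the LoF mean (0) and the GoF mean (1) on log2(FPKM + 1), for the 790 genes higher in GoF (left, blue) and the 777 lower (right, orange). Positions beyond the axis are drawn at its ends. The higher genes peak at the LoF level with a median of 0.328, and the lower genes peak between the mutants with a median of 0.406.

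For some abundant genes the 95% interval of the log2 fold change, not adjusted for the number of genes, lay within -1 to 1. They were picked for that interval, which does not bound the true difference. Eef1a1, a translation elongation factor, was at 1843 and 2043 FPKM in GoF and 1303, 1718, 2311 and 1985 in LoF (interval -0.43 to 0.67). Cd63, a tetraspanin of late endosomes and exosomes, was at 1083 and 1427 and 850.3, 1252, 1152 and 1161 (interval -0.32 to 0.69), and Ftl1, the ferritin light chain, at 1049.8 and 1178 and 844, 948, 847 and 1227 (interval -0.28 to 0.72). Anxa2, a membrane-binding annexin, was at 615 and 619 and 365, 517, 558 and 525 (interval -0.19 to 0.89). Gapdh did not pass, at 105 and 137 in GoF and 78.3, 81.4, 154 and 148 in LoF, and neither did the long noncoding RNA Malat1, at 2126 and 2457 and 3009.7, 2698, 1057 and 1319 (limma adjusted p = 0.854 and 0.656).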

How the data were processed

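RNA was measured by Smart-seq2 in 8 libraries of 70 picked tdTomato-positive cells each: 4 LoF, 2 GoF and 2 WT. The deposited FPKM table of the authors covers all genes. The submitters' processing notes name HISAT2, SAMtools 0.1.18, Cufflinks, HTSeq and the mm10 build, with no roles, so how reads of overlapping genes or near-identical copies (histones, ferritins, Tmsb4x) were assigned is not given in the sources used here. The table has 48555 lines, and 65 repeated lines were dropped. FPKM divides by a library's mapped fragments, so a few very abundant genes lower all others.

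Genes at or above 1 FPKM in 2 or more of the 6 GoF and LoF libraries were tested with limma 3.58.1 in R 4.3.3 (mean-variance trend, all 3 groups in the fit, two-sided) on log2(FPKM + 1), so fold changes of low genes are understated. P-values were adjusted over the 12309 genes by Benjamini-Hochberg, and calls are at 0.05. Genes listed at 0 throughout a group are given without a fold. The fit was tested on simulated data of 12309 genes with independent normal noise and a small share of changed genes. Shifts of 1, 2, 3 and 4 on the log2 scale were called in 1.4%, 28.2%, 62.4% and 76.4% of changed genes. Of the calls, 3.8% were false. A larger share of genes was called in the real data, so these rates may not carry over. A gene without a call may differ.

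Families were mostly built from symbol stems, and 122 genes that a stem took in wrongly were removed after values had been seen. The members and lists were chosen with earlier results of these data known. Named genes were the largest calls in each direction overall and per family (up to 4 a direction), the most abundant calls, the largest calls by WT position, every tested member of families of 8 or fewer, abundant genes with a narrow interval, and fixed markers. Hspa5 and the BMP ligands beyond these were named after their values were seen. The 20 alternatives covered the pseudocount, filters, scaling, the model, the replicate number, Y-linked against Xist libraries and leaving out libraries. Correlations of deviations between libraries of the same number ran from -0.011 to 0.033. A few results that belong to the comparison are not reported here.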

Additional observations from a re-analysis of the deposited data

Results flagged for a closer look

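Among the genes named above, 12 had 1 LoF library whose gap to the next exceeded Dixon's 95% critical value for 4 libraries, and chance marks about 1 in 20 groups. LoF library 1 stood apart with 7.33 FPKM of Gal, 0.515 of Ptgs2 and 116 of Rnaset2b, each above the other 3, and with 106 of Tnc, below them. LoF library 3 was the lowest for Bambi (1.38), Gnas (342), Lpar3 (0) and Pcsk5 (1.73), and the highest for Sct (2.17). Chac1 was at 0.364 in LoF library 2, and Gchfr and Stmn2 at 1.42 and 0.304 in LoF library 4, each above the other LoF libraries. In all 12 genes the library that stood apart lay on the LoF side of both GoF libraries, which follows from the lack of overlap given above and is no further check.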

How the results depend on the processing

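No called gene changed direction under any of the 20 alternatives, and 168 of the 517 named calls passed in all of them. The 1567 calls (790 higher, 777 lower) became 751 (424 and 327) without LoF libraries 2 and 3, 926 (521 and 405) without LoF libraries 1 and 4, and 1041 (563 and 478) with the sex of the library as a covariate. With no filter on low values, 502 genes were lower among 19228 tested. Leaving out 1 library gave 450 to 1449 calls in all, 282 to 757 higher and 168 to 715 lower, with the lowest counts without GoF library 1. With the replicate block 891 genes passed (514 higher, 377 lower). The labels do not say whether these numbers pair libraries. The weak correlations of deviations between same-numbered libraries cannot settle it with so few libraries. Median ratio scaling gave 59.2% higher calls and rescaling to a common total 39.6%, against 50.4%. Named calls ended most often without GoF library 1 (309 of 517), without GoF library 2 (284) and without LoF libraries 2 and 3 (217). With 2 GoF libraries, a small or variable difference could not be detected. The causes were not tested.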
